A study of Homo sapiens with 80 samples.

Results

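Small nucleolar RNA host genes are long transcripts that carry small nucleolar RNAs (snoRNAs) inside them, and 28 of them were followed here through short hypergravity and heat in Jurkat T cells, a human leukaemic CD4+ T cell line. The genes were taken by name from the count table: every symbol of the SNHG series together with GAS5, ZFAS1, DANCR and EPB41L4A-AS1, with a mean raw count over the 80 libraries of at least 20. This gave 28 of 60663 genes. Of the 32 genes with such a name, SNHG31 lay just outside with a mean count of 16.5, and SNHG18, SNHG27 and SNHG28 lay lower, while SNHG9 with 58.4 and SNHG21 with 59.6 lay just inside. The genes were chosen by name and selected on this mean count, so that the levels below are a description, and the tests concern the difference between treated and control libraries.

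SnoRNAs guide the chemical modification of ribosomal RNA. Box C/D snoRNAs direct the methylation of riboses and box H/ACA snoRNAs the conversion of uridine to pseudouridine, while scaRNAs do the same for spliceosomal RNAs in Cajal bodies. Most human snoRNAs are cut out of the introns of a host transcript after splicing, and the spliced exons of these hosts leave the nucleus as an RNA without a long reading frame. Several spliced hosts begin with a run of pyrimidines, as ribosomal protein mRNAs do, and are removed by nonsense-mediated decay when ribosomes translate them. GAS5 is the best known in T cells, where it is described as a brake on growth whose level goes up when cells stop dividing.

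All libraries came from clone E6-1 of the line and were made from total RNA after removal of ribosomal RNA, so that unfinished transcripts are covered too. In the 9 g experiment, cells in pipettes were spun in a pipette centrifuge for 20 s (hypg20s), 75 s (hypg75s), 3, 5, 7, 9 or 15 min (hypg3 to hypg15) or 60 min (hypg60) and lysed at once, and were compared with uncentrifuged cells at 1 g held for 15 min (Ctrl) or, for hypg60, for 60 min (Ctrl60), with 6 libraries in each group. In the other experiment, a tabletop centrifuge spun the cells for 5 min at 300 g, and they were lysed 1, 4 or 15 min after it stopped (wait1min, wait4min, wait15min) or were held at 42 °C for 5 min without a spin (heat), and were compared with directly lysed cells (Ctrl300), with 4 libraries in each group. The Ctrl libraries are shared by 7 comparisons with treated groups and the Ctrl300 libraries by 4. The columns of values within an experiment are therefore not independent of each other. Ctrl was also compared with Ctrl60. The labels do not say whether replicates came from separate cultures, and p-values then measure only the spread between these libraries. No agent or genotype differs between groups, but the column names of Ctrl60 mention HEPES buffer, and hypg3 and hypg15 carry library numbers 69 to 80, apart from numbers 1 to 48 of the other 9 g groups, which cannot be told apart from these exposure times. In bulk RNA, fewer cells holding a transcript and less of it per cell cannot be told apart.

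Apart from library 75 with 17205655 counts, the libraries held 22634465 to 41893490 counts at 9 g and 24417717 to 41220541 in the 300 g and heat experiment. Library 75 of hypg15 lacked every count for chromosomes 4 to 9, both sex chromosomes and the mitochondrial genome, which put 10 host genes at 0, and it was left out, so that hypg15 has 5 libraries. The T cell markers fitted the label: 11 of 11 had a median above 1 CPM (counts scaled to library size), against 0 of 4 myeloid and 0 of 2 erythroid markers, while of the 4 B cell markers CD79A alone was above it, with a median of 58.8 CPM. Host genes were counted over all their annotated exons on their own strand, and reads on bases shared with the exon of another gene were given to neither. In SNHG1, SNHG8, SNHG9 and SNHG15 the annotated exons form 1 block over the whole gene, and in DANCR they hold 10179 bases in 3 blocks. Spliced and unspliced host RNA cannot be told apart in such counts. Of the exon bases, 72.9% were shared in SNHG21, 48.6% in SNHG25, 29.1% in SNHG32 and 23.0% in SNHG9, and at most 15.4% in each of the others, so that the values of these 4 rest on less sequence than their length says.

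A pyrimidine run is read at the first bases of a transcript, and the bases around the annotated start are therefore shown first, for hosts whose values are described below. RefSeq (GRCh38.p14) gave a start for 24 of the 28 genes, all but SNHG6, SNHG9, SNHG15 and SNHG25. The letters CTTTT or CTTTC, searched for on the transcribed strand in a window from 10 bases before to 15 bases after the start, were present in 9 of these 24 (SNHG4, SNHG5, SNHG8, SNHG12, SNHG16, SNHG19, SNHG29, SNHG32 and ZFAS1), against 6.69% of all 35116 windows. Taken singly, CTTTT was in 5 of the 24 and in 3.13% of all windows, and CTTTC in 4 and 3.68%. On the opposite strand they were in 0 and 1 of the 24, against 1.99% and 2.6% of all windows. The lines below give 25 bases on each side, with the start at base 26 and the searched letters in capitals where the window holds them.
ZFAS1: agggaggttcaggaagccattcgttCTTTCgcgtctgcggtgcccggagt
SNHG5: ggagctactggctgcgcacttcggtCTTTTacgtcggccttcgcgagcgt
SNHG19: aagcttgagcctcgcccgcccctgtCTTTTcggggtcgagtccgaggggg
SNHG29: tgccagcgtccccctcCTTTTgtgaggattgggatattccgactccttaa
SNHG4: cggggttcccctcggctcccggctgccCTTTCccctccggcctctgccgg
SNHG12: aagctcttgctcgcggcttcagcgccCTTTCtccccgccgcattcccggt
SNHG1: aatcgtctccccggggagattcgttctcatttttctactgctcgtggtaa
GAS5: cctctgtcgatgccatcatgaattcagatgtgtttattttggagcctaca
The ZFAS1 window is chr20:49278617-49278666 on the plus strand, SNHG5 is chr6:85678709-85678758 and SNHG19 is chr16:2155334-2155383, both on the minus strand, and SNHG29 is chr17:16438962-16439011 on the plus strand. The SNHG4 window is chr5:139274076-139274125 on the plus strand, SNHG12 is chr1:28581849-28581898, SNHG1 is chr11:62855861-62855910 and GAS5 is chr1:173869021-173869070, these 3 on the minus strand. The windows of GAS5, SNHG3 and SNHG14 lie wholly outside the genes as counted, which begin at chr1:173868882, chr1:28505980 and chr15:24978583. In ZFAS1, SNHG5 and SNHG19 the searched letters begin at the start base itself, and the base just before it is a pyrimidine too. In SNHG29 the letters lie wholly before the start base, outside the annotated transcript. A match is a description of the letters, and none of these starts was measured here.

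By the small RNAs annotated inside them, 11 genes hold box C/D snoRNAs (SNHG1, SNHG5, SNHG6, SNHG14, SNHG16, SNHG19, SNHG26, SNHG29, SNHG30, SNHG32 and ZFAS1), 10 hold box H/ACA snoRNAs (DANCR, EPB41L4A-AS1, SNHG3, SNHG4, SNHG7, SNHG8, SNHG9, SNHG11, SNHG15 and SNHG17), SNHG12 and SNHG25 hold both kinds, and SNHG10, SNHG20, SNHG21 and SNHG22 hold a scaRNA. No snoRNA lies inside GAS5 in the annotation used here, although it is known as a host of box C/D snoRNAs. Per kilobase of exon in the Ctrl group, SNHG29 stood highest with 75.6 ± 4.87 normalized CPM per kb (mean ± SD, n = 6), followed by SNHG16 with 46.6 ± 2.29, SNHG3 with 43.9 ± 2.14, SNHG19 with 35.9 ± 1.11 and GAS5 with 27.0 ± 1.32. SNHG14, SNHG5 and SNHG22 closed the order with 1.40 ± 0.0291, 1.16 ± 0.118 and 0.913 ± 0.223. In this order SNHG25 and SNHG32, SNHG17 and SNHG6, SNHG6 and SNHG8, SNHG30 and SNHG11, and SNHG21 and SNHG14 differed by less than the larger SD of the pair. SNHG29, formerly LRRC75A-AS1, and SNHG16 are hosts of SNORD49A, SNORD49B and SNORD65 and of the SNORD1 family. SNHG14 is the long imprinted transcript of the Prader-Willi region, and its low value per kb goes with 122609 exon bases.

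In the fit on heat and Ctrl300 alone, heat raised host genes and lowered none. Of the 28 genes, 12 were upregulated and 0 downregulated after 42 °C (edgeR quasi-likelihood test, Benjamini-Hochberg adjusted p under 0.05 over all genes tested), which is 42.9% higher, while 10.6% of all genes tested were called higher, 10.2% lower and 20.8% in either direction. The genes called were ZFAS1, SNHG12, SNHG1, SNHG7, SNHG19, SNHG5, SNHG11, SNHG20, DANCR, SNHG15, SNHG3 and GAS5, and the median over the 28 was a log2 fold change of 0.12 against 0.01 over all genes. With all groups of the experiment in 1 model, 10 host genes were higher and 1 lower, beside 7.85% and 21.6% of all genes. The median over the host genes was then 0.05, against -0.06 over all genes. ZFAS1, an antisense neighbour of ZNFX1 that holds the SNORD12 snoRNAs, moved most. It had 55.3, 54.3, 53.6 and 49.1 normalized CPM in the Ctrl300 libraries and 68.7, 70.5, 65.0 and 71.0 in the heat libraries. The groups did not overlap, and the difference was a log2 fold change of 0.44 ± 0.05 (SE), or 1.36-fold (edgeR, adjusted p = 4.3e-06). Library values are scaled over all groups of an experiment, but log2 fold changes and calls over the 2 groups compared. On the scale over all groups the heat libraries lie lower against Ctrl300. The printed heat values therefore give a smaller rise, or a larger fall, than the log2 fold changes beside them.

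SNHG12, which holds SNORD99, SNORA61, SNORA44 and SNORA16A, was at 28.8, 28.8, 27.1 and 26.4 in Ctrl300 and at 37.5, 33.3, 36.8 and 35.5 after heat, without overlap (0.43 ± 0.05, edgeR, adjusted p = 1.7e-05). SNHG1, the host of SNORD22, SNORD30 and SNORD25 to SNORD28, was at 102, 93.4, 90.9 and 88.7 and at 118, 112, 116 and 118, again without overlap (0.37 ± 0.04, edgeR, adjusted p = 6.8e-06). SNHG19 rose from 14.2, 15.0, 15.4 and 15.6 to 18.7, 17.9, 19.1 and 17.3 (0.34 ± 0.06, edgeR, adjusted p = 8e-04). On the scale over all groups, all libraries lay higher after heat for 9 of the 28 genes and lower for 1. These patterns were seen in 7.66% and 20.4% of all genes tested. The calls, 10.6% higher and 10.2% lower of all genes, rest on the scale over 2 groups. Among the called genes, DANCR, SNHG3 and GAS5 had groups that overlapped on the scale over all groups.

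DANCR, a host of SNORA26 known for holding back differentiation, was at 113, 117, 122 and 114 in Ctrl300 and at 125, 117, 136 and 130 after heat. On the scale over 2 groups its log2 fold change was 0.19 ± 0.04 (edgeR, adjusted p = 0.0016), more than these values give. GAS5 was at 168, 161, 161 and 152 and at 165, 156, 174 and 163, with a log2 fold change of 0.10 ± 0.03 (edgeR, adjusted p = 0.048). This last call was lost on leaving out library 50, 51, 52, 65, 67 or 68 in turn, with adjusted p-values of 0.054 to 0.17, and SNHG3 was lost without library 65 (adjusted p = 0.063). The GAS5 call was also lost without a filter, with RLE, with DESeq2 and with all groups in 1 model, where GAS5 was at 0.03, and the SNHG3 call was lost in 1 model (0.06). EPB41L4A-AS1, the host of SNORA13, went the other way, from 20.4, 22.1, 21.8 and 21.3 to 18.7, 18.9, 19.8 and 18.3. Every heat library lay lower on the scale over all groups. On the scale over 2 groups EPB41L4A-AS1 did not pass the test (-0.11 ± 0.06, edgeR, adjusted p = 0.19). Across the 28 genes the heat difference went with GC content (Spearman's rho 0.66, n = 28 genes from the same libraries), while over all genes rho was 0.16, and none of the 12 calls changed sign once the GC dependence was removed.

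**Figure D1:**
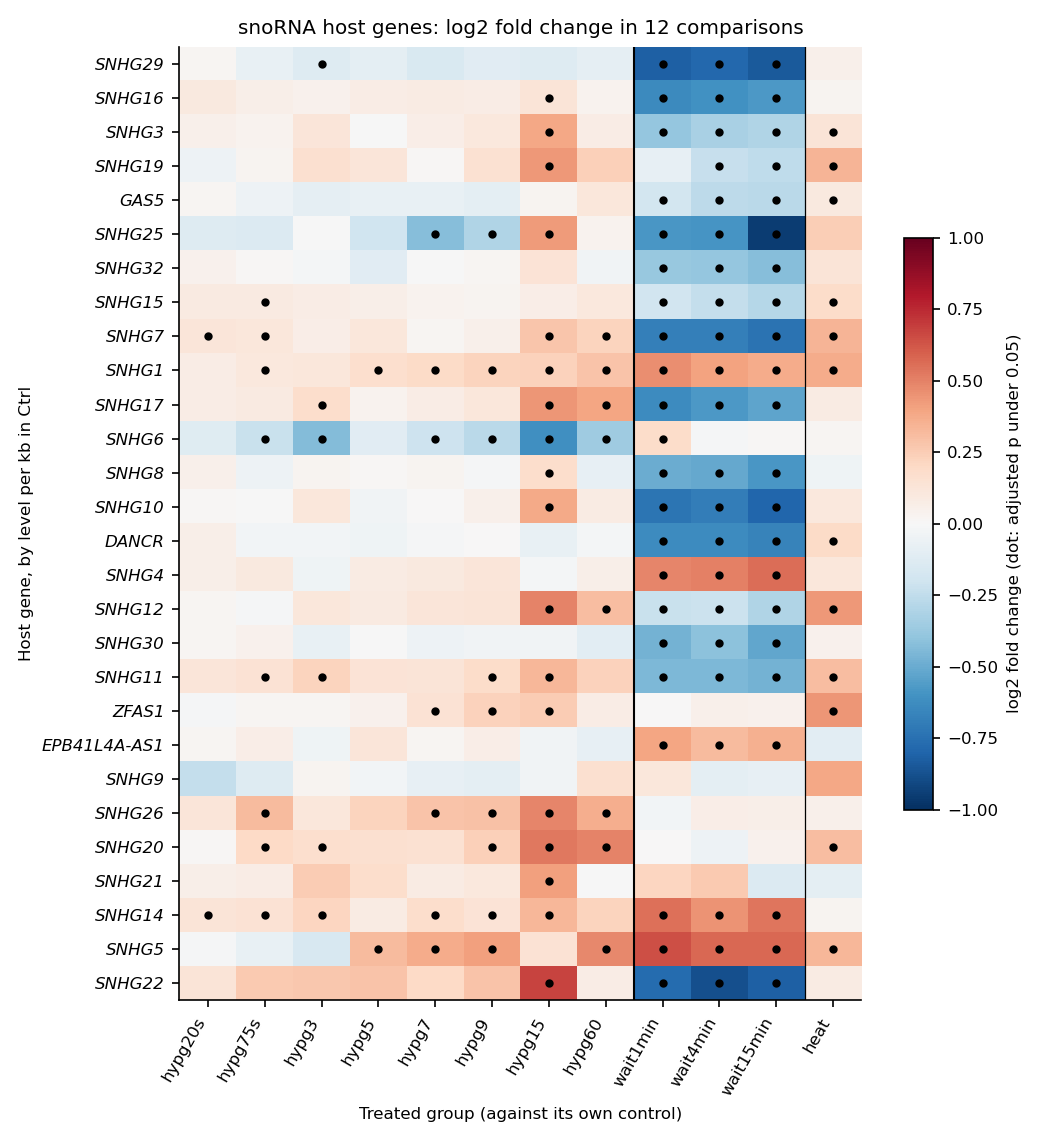
Log2 fold change of the 28 host genes (rows, ordered by level per kb in Ctrl) in each treated group against its own control (columns); dots mark adjusted p under 0.05 and the vertical lines part 9 g, 300 g and heat. The heat column holds dots on raised genes alone, the hypg15 column 17 raised and 1 lowered, and the 300 g columns mostly lowered genes.

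At 9 g the number of host genes called followed the exposure time unevenly. After 20 s, 2 of 28 were upregulated and 0 downregulated, while 6.66% of all genes tested were called higher, 8.58% lower and 15.2% in either direction. After 75 s, 7 were higher and 1 lower, beside 16.8% and 14.4% of all genes, and after 3 min 4 and 2, beside 16.9% and 24.4%. After 5 min, 2 and 0 were called, beside 4.33% and 1.69%, after 7 min 5 and 2, beside 6.64% and 6.19%, and after 9 min 7 and 2, beside 11.3% and 8.34%. After 15 min, 17 were higher and 1 lower, which is 60.7% and 3.57%, beside 25.4% and 27.9% of all genes. After 60 min, 7 were higher and 1 lower, beside 17.1% and 13.0%. In either direction, 31.3%, 41.3%, 6.02%, 12.8%, 19.6%, 53.4% and 30.1% of all genes were called from 75 s to 60 min. The share of host genes called higher exceeded that of all genes most in hypg15, with a median log2 fold change of 0.24 against 0.02. Libraries that all lay above every control were seen for 0, 3, 4, 3, 5, 6, 14 and 5 of the 28 genes from 20 s to 60 min, beside 4.06%, 8.06%, 8.65%, 3.37%, 3.4%, 5.42%, 15.0% and 8.52% of all genes. All lay below every control for 0, 0, 1, 0, 1, 0, 1 and 0 genes, beside 1.8%, 6.88%, 12.4%, 1.76%, 2.65%, 4.1%, 18.0% and 4.82%. The calls at 20 s and at 5 min are few and depended on the setting, with 0 to 6 and 0 to 8 genes over the alternatives tried.

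**Figure D2:**
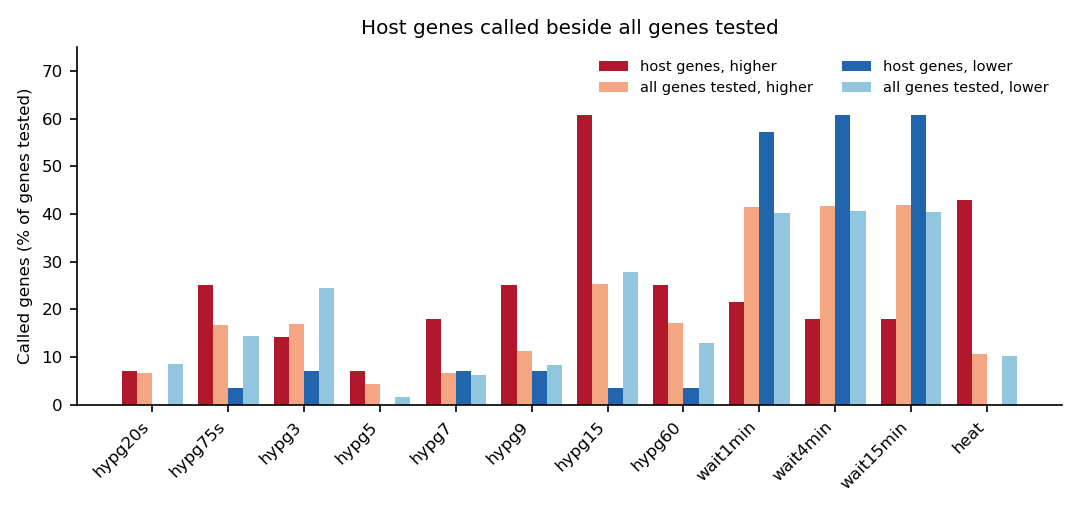
Percent of genes called at adjusted p under 0.05, higher (red) or lower (blue), for the 28 host genes (dark bars) and for all genes tested (light bars) in each treated group. The dark red bar exceeds the light one most in hypg15 (60.7% against 25.4%) and heat (42.9% against 10.6%), and the dark blue bar exceeds the light one in the 3 groups spun at 300 g and, with 2 genes (7.14% against 6.19%), in hypg7.

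SNHG1 was raised at most times from 75 s on. It was at 70.9, 76.0 and 77.8 in Ctrl (lowest, median and highest of 6 libraries) and at 77.9, 83.9 and 95.4 in hypg5, 78.9, 87.3 and 89.2 in hypg7 and 84.6, 86.6 and 91.8 in hypg9. From 5 min on every treated library lay above every control library. The log2 fold change was 0.10 ± 0.03 at 75 s, 0.17 ± 0.05 at 5 min, 0.19 ± 0.04 at 7 min, 0.22 ± 0.03 at 9 min, 0.23 ± 0.06 at 15 min and 0.29 ± 0.06 at 60 min, each called (edgeR, adjusted p = 0.031, 0.049, 0.0049, 4.2e-04, 0.005 and 0.0016). It kept its sign at each of these times with total counts as scaling and with GC content removed, where it was 0.20 at 75 s and 0.45 at 15 min. The calls at 75 s and 5 min were lost without a filter, that at 75 s also with all groups in 1 model and that at 5 min with RLE.

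SNHG5, the host of SNORD50B, did not pass the test up to 3 min. It was at 12.3, 14.7 and 16.7 in Ctrl, at 9.95, 13.1 and 16.3 in hypg3, at 15.7, 17.6 and 21.2 in hypg5, at 16.0, 19.4 and 21.5 in hypg7 and at 17.0, 19.8 and 21.8 in hypg9. Control and treated libraries overlapped at 5 and 7 min and no longer at 9 min. The difference was 0.32 ± 0.09 at 5 min, 0.37 ± 0.08 at 7 min, 0.41 ± 0.08 at 9 min and 0.48 ± 0.10 at 60 min (edgeR, adjusted p = 0.043, 0.0084, 0.0019 and 0.0028). The 5 min call was lost without a filter, with RLE and with total counts. In hypg15 the 5 libraries read 11.9, 18.6, 15.0, 17.2 and 18.0, and the difference did not pass the test (0.14 ± 0.11, edgeR, adjusted p = 0.28).

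SNHG6, the host of SNORD87, was lowered at 6 of the 8 exposure times. It was at 17.6, 18.6 and 20.7 in Ctrl, at 14.5, 16.1 and 17.6 in hypg75s and at 12.0, 14.4 and 16.8 in hypg3. The 5 hypg15 libraries read 13.2, 11.6, 13.8, 12.4 and 11.5, all below the controls, as were all hypg3 libraries. The log2 fold change was -0.23 ± 0.06 at 75 s, -0.44 ± 0.08 at 3 min, -0.21 ± 0.06 at 7 min, -0.27 ± 0.06 at 9 min, -0.61 ± 0.07 at 15 min and -0.36 ± 0.11 at 60 min (edgeR, adjusted p = 0.015, 5.4e-04, 0.033, 0.0084, 1.5e-05 and 0.025), and -0.12 ± 0.06 and -0.11 ± 0.07 at 20 s and 5 min, where it was not called. With 42.0% GC it belongs to the AT-rich members, and with GC content removed the difference shrank to -0.32 at 15 min and -0.22 at 3 min, both still called, and to -0.09 at 75 s, where the call was lost. With total counts the calls at 7 and 60 min were lost (-0.16 and -0.31), and the 7 min call was also lost without a filter and with all groups in 1 model.

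SNHG20, which holds SCARNA16 and shares exon bases with SEC14L1, was raised at 75 s and at 3, 9, 15 and 60 min. It was at 11.6, 12.2 and 12.5 in Ctrl, at 12.9, 13.6 and 14.6 in hypg75s and at 13.0, 14.2 and 15.5 in hypg9, and the hypg15 libraries read 14.7, 19.8, 15.5, 17.6 and 19.6. None of these groups overlapped with Ctrl. The difference was 0.20 ± 0.05, 0.17 ± 0.06, 0.24 ± 0.06 and 0.53 ± 0.09 at 75 s and 3, 9 and 15 min and 0.50 ± 0.09 at 60 min (edgeR, adjusted p = 0.0071, 0.038, 0.007, 1.4e-04 and 8.4e-04). The calls at 75 s (0.12) and 3 min (0.05) were lost with GC content removed, and that at 3 min was also lost without a filter. SEC14L1 itself had 0.12 ± 0.06 at 15 min (edgeR, adjusted p = 0.12) and 0.28 ± 0.06 at 60 min (adjusted p = 0.0027), and its part in the value of SNHG20 was not tested.

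SNHG14 and SNHG26 were raised at most times. SNHG14 was at 167, 172 and 177 in Ctrl and at 191, 202 and 218 in hypg3, and the hypg15 libraries read 203, 221, 222, 216 and 222. Both groups lay above all controls. Its log2 fold change was 0.13 ± 0.04 at 20 s, 0.14 ± 0.03 at 75 s, 0.21 ± 0.03 at 3 min, 0.18 ± 0.04 at 7 min, 0.14 ± 0.03 at 9 min and 0.33 ± 0.04 at 15 min (edgeR, adjusted p = 0.049, 0.0052, 2.5e-04, 0.008, 0.0059 and 1.6e-05). Its 20 s call was lost without a filter, with RLE, with total counts and with all groups in 1 model (edgeR, adjusted p = 0.067, 0.053, 0.077 and 0.12), and the 75 s and 9 min calls were lost in 1 model (0.083 and 0.093). SNHG26, the host of SNORD93, was at 11.9, 14.6 and 15.4 in Ctrl and at 15.2, 18.2 and 18.6 in hypg75s, and the hypg15 libraries read 16.4, 21.8, 18.9, 21.3 and 21.7. The groups overlapped at 75 s and not at 15 min. It rose by 0.32 ± 0.07 at 75 s, 0.29 ± 0.07 at 7 min, 0.30 ± 0.07 at 9 min, 0.49 ± 0.09 at 15 min and 0.37 ± 0.08 at 60 min (edgeR, adjusted p = 0.0048, 0.021, 0.0071, 4.4e-04 and 0.0032). SNHG26 has the lowest GC content of the 28, and with GC content removed it stood at 0.54 at 75 s, 0.93 at 15 min and 0.62 at 60 min.

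**Figure D3:**
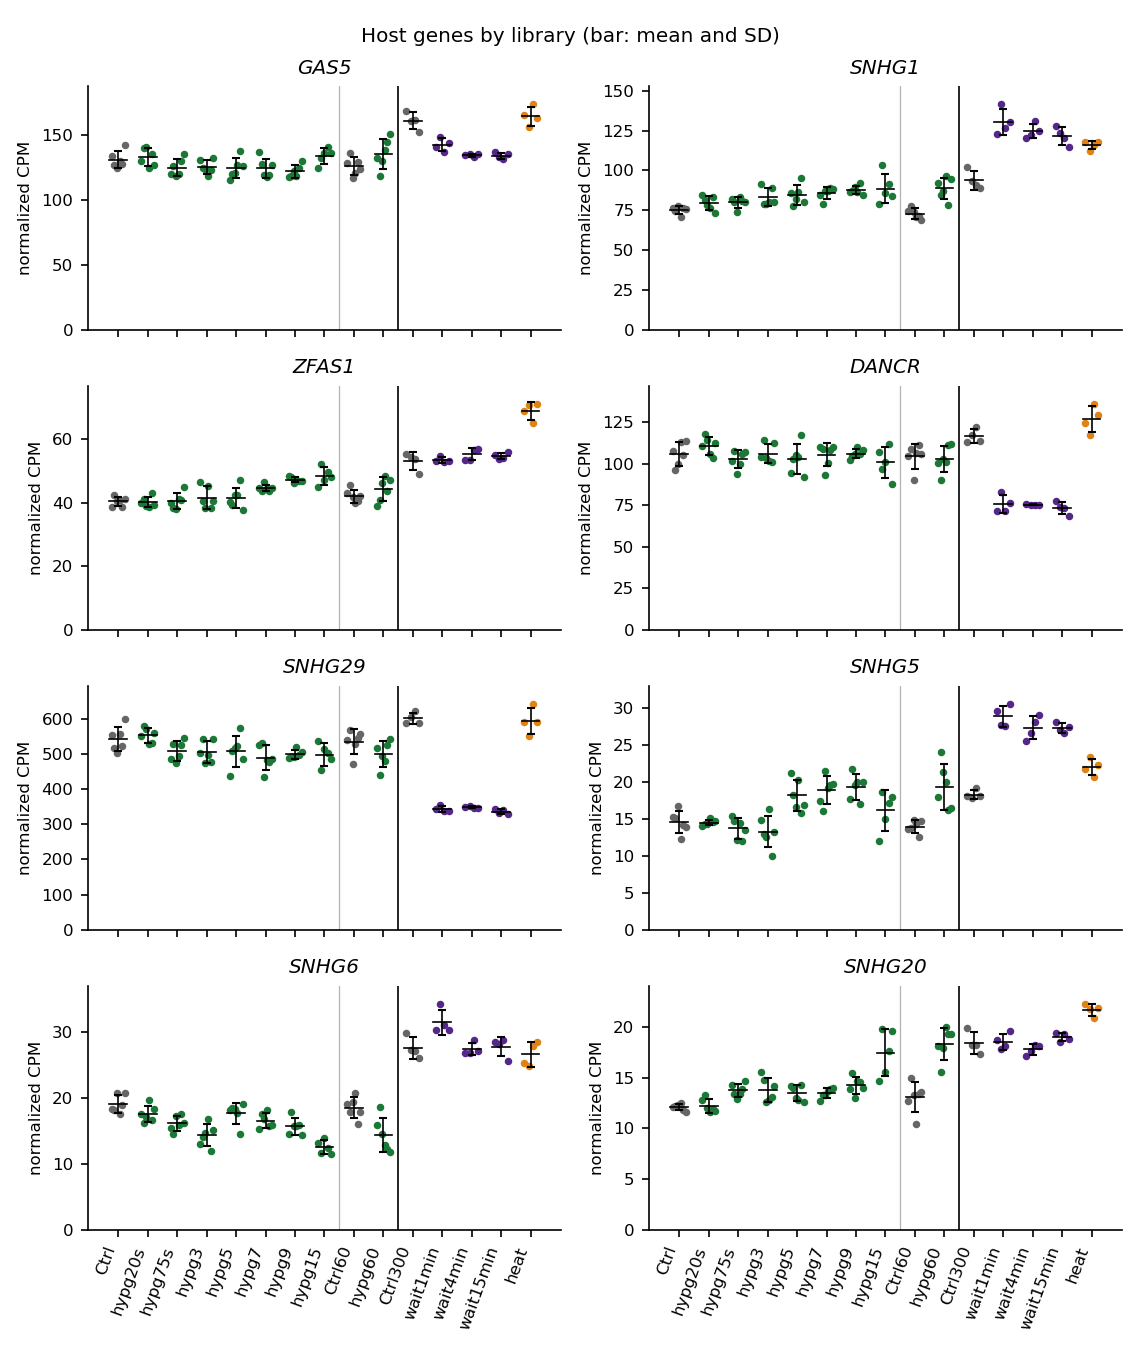
Normalized CPM of 8 host genes in each library (points) with the mean and SD of each group (bars); grey marks controls, green 9 g, purple 300 g and orange heat, and the black line parts experiments that were normalized separately. SNHG6 falls at 9 g, SNHG5 lies higher from hypg5 on except in hypg15, and DANCR and SNHG29 drop after 300 g.

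Of the much-studied hosts ZFAS1, GAS5 and DANCR, ZFAS1 was raised at 3 of the 9 g times, and GAS5 and DANCR were not called. ZFAS1 was at 38.6, 40.7 and 42.4 in Ctrl, at 43.7, 44.4 and 46.5 in hypg7 and at 46.3, 46.8 and 48.2 in hypg9, and the hypg15 libraries read 44.9, 52.3, 47.0, 49.6 and 48.0. All these libraries lay above every control. The log2 fold change was 0.14 ± 0.04 at 7 min, 0.23 ± 0.04 at 9 min and 0.26 ± 0.05 at 15 min (edgeR, adjusted p = 0.02, 7.3e-04 and 9.1e-04), while at 60 min it was 0.08 ± 0.06 (adjusted p = 0.38). With GC content removed, ZFAS1 stood at 0.13 at 7 min, 0.18 at 9 min and 0.02 at 15 min, and the calls at 7 and 15 min were lost, while at 3 min it was called lower (-0.16). The 7 min call was also lost without a filter (edgeR, adjusted p = 0.11). GAS5 was at 125, 129 and 143 in Ctrl and its group medians at 9 g ran from 120 to 136, with log2 fold changes of -0.10 to 0.11 and no call. DANCR was at 96.2, 106 and 114 in Ctrl with 9 g medians of 101 to 111, log2 fold changes of -0.08 to 0.06 and no call. Relative to total counts, GAS5 was called lower at 3 min (-0.07) and higher at 60 min (0.15). Once GC content was removed, GAS5 was called higher at 15 min (0.30), and DANCR was called lower at 75 s (-0.12), 3 min (-0.16), 15 min (-0.27) and 60 min (-0.13).

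At 15 min hosts of each kind were raised. Of the 11 box C/D hosts, 6 were higher and 1 lower, of the 10 box H/ACA hosts 5 were higher, and both hosts of the 2 kinds and all 4 scaRNA hosts were higher, beside 25.4% of all genes higher and 27.9% lower. SNHG12 was at 29.2, 31.6 and 33.5 in Ctrl, and the hypg15 libraries read 42.7, 44.9, 45.1, 43.8 and 46.5 (0.50 ± 0.05, edgeR, adjusted p = 5.9e-06). SNHG17, which holds snoRNAs of the SNORA71 family, was at 173, 185 and 196 in Ctrl and read 249, 241, 244, 245 and 281 in hypg15 (0.44 ± 0.05, edgeR, adjusted p = 9.4e-06). Neither gene overlapped with its controls, and 14 host genes lay higher in every hypg15 library, a pattern of 15.0% of all genes. SNHG22 had the highest value of the 28 with TMM scaling, 0.68 ± 0.16 (edgeR, adjusted p = 0.0027), at a level of only 1.43 to 3.07 in Ctrl and with groups that overlapped. SNHG26 (0.93) and SNHG21 (0.60) stood above SNHG22 (0.46) with GC content removed. With GC content removed, 15 host genes were higher and 4 lower, beside 13.2% and 29.8% of all genes, and SNHG12 stood at 0.25. Of the box H/ACA hosts, SNHG3, SNHG4 and SNHG17 were then called higher and DANCR (-0.27), SNHG7 (-0.10) and SNHG9 (-0.40) lower. The other box H/ACA hosts were not called, nor was SNHG25 (0.10), which holds both kinds.

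At 60 min the hypg60 libraries were uneven. SNHG17 read 183, 255 and 317 there and 178, 193 and 198 in Ctrl60, with a difference of 0.40 ± 0.09 (edgeR, adjusted p = 0.0056). Library 44 held the lowest value of 20 of the 28 genes within hypg60 and library 48 the highest of 15. Without library 44, 11 host genes were higher and 1 lower, beside 21.2% and 22.2% of all genes, and without library 48, 6 and 1, beside 16.2% and 11.5%, where SNHG12 dropped out (adjusted p = 0.087). The difference between the 60 min and the 9 min effect was called for 0 of the 28 genes (edgeR; 5 at an unadjusted p under 0.05 and 0 by DESeq2), beside 2.04% of all genes, 1.73% higher and 0.304% lower. Ctrl60 against Ctrl gave 0 calls (edgeR; 0 at an unadjusted p under 0.05 and 0 by DESeq2), beside 0.0124% of all genes, 0.00621% in each direction, and no host gene whose libraries did not overlap, beside 0.155% higher and 0.211% lower.

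After 300 g, host genes were mostly lowered. At 1 min after the spin, 6 were upregulated and 16 downregulated, and at 4 and 15 min 5 and 17 each, so that 57.1% and then 60.7% were lower and 21.4% and then 17.9% higher. Of all genes tested, 40.1%, 40.6% and 40.5% were called lower and 41.4%, 41.7% and 41.8% higher at the 3 times, and 81.5%, 82.2% and 82.3% in either direction. The share of host genes called in either direction was 78.6% at each time, near that of all genes, and lower calls outnumbered higher ones. Their median log2 fold changes were -0.21, -0.25 and -0.29, against 0.01 over all genes at each time. With GC content removed the split was 11 higher and 11 lower, 10 and 11, and 9 and 12, beside 44.0%, 45.4% and 44.9% of all genes higher and 28.2%, 29.3% and 29.2% lower. Scaling by total counts alone shifted all genes by 0.24 to 0.26 in these comparisons, and 49.7%, 51.0% and 50.9% of all genes were then called higher and 30.4%, 30.0% and 29.9% lower, beside 12 and 13, 10 and 12, and 9 and 12 host genes.

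SNHG29, the most abundant host, fell most among the host genes above 10 normalized CPM with TMM scaling, but not with GC content removed, where SNHG26 and SNHG30 were lower at all 3 times and GAS5 at 4 and 15 min. It was at 590, 605, 623 and 590 in Ctrl300, at 343, 355, 337 and 338 in wait1min, at 350, 352, 348 and 347 in wait4min and at 342, 332, 341 and 328 in wait15min. No library overlapped with the controls, and the values differed little between waiting times. The log2 fold change was -0.82 ± 0.04, -0.79 ± 0.02 and -0.84 ± 0.03 (edgeR, adjusted p = 5.3e-13, 6.9e-18 and 4.7e-15), which leaves 0.557 of the control level at 15 min. It held at -0.75, -0.72 and -0.77 with GC content removed and at -0.57, -0.53 and -0.58 with total counts.

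DANCR was at 71.7, 83.2, 71.7 and 76.6 in wait1min and at 77.7, 73.8, 73.6 and 68.6 in wait15min, below all the Ctrl300 libraries given above (-0.63 ± 0.05 and -0.67 ± 0.04, edgeR, adjusted p = 2.4e-09 and 1.6e-11). It kept its sign with GC content removed, at -0.11 and -0.18. SNHG10, the host of SCARNA13, was at 54.7, 59.1, 59.1 and 56.6 in Ctrl300, at 36.3, 35.2, 33.1 and 34.5 in wait1min and at 34.2, 35.6, 32.1 and 30.7 in wait15min (-0.73 ± 0.05 and -0.79 ± 0.05, edgeR, adjusted p = 8.5e-11 and 2.3e-11), with -0.45 and -0.52 once GC content was removed. SNHG16 was at 303, 300, 311 and 295 in Ctrl300 and at 192, 203, 189 and 199 in wait1min (-0.64 ± 0.04, edgeR, adjusted p = 2.4e-11). In each of these comparisons the spun libraries lay below all controls, as they did for 16, 17 and 17 host genes at the 3 times, beside 37.4%, 37.7% and 37.9% of all genes. Above all controls lay 7, 6 and 5 host genes, beside 39.3%, 39.5% and 39.5%.

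GAS5 fell less. It was at 141, 148, 137 and 143 in wait1min, 135, 135, 133 and 135 in wait4min and 137, 133, 131 and 135 in wait15min, without overlap with Ctrl300 (-0.18 ± 0.04, -0.26 ± 0.03 and -0.27 ± 0.03, edgeR, adjusted p = 4.3e-04, 5.3e-08 and 4.3e-07). Relative to total counts alone it did not fall, with 0.06, -0.00 and -0.00, while with GC content removed it stood at -0.73, -0.78 and -0.79. SNHG7, a host of SNORA17 copies and with 65.9% GC among the GC-rich members, was at 92.6, 102.5, 102.7 and 103.6 in Ctrl300 and at 65.9, 64.9, 59.6 and 61.5 in wait1min (-0.68 ± 0.05, edgeR, adjusted p = 3.1e-10), but at 0.07, 0.01 and -0.04 with GC content removed.

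The hosts that rose after 300 g were SNHG5, SNHG14, SNHG4, SNHG1 and EPB41L4A-AS1 at all 3 times and, at 1 min, SNHG6 with 0.19, which turned to -0.40 and was called lower with GC content removed. SNHG5 was at 18.1, 17.9, 19.2 and 18.1 in Ctrl300, at 29.6, 27.7, 27.6 and 30.6 in wait1min and at 28.1, 27.1, 26.6 and 27.4 in wait15min. Every spun library lay above every control. The log2 fold change was 0.65 ± 0.05 and 0.57 ± 0.05 (edgeR, adjusted p = 4.8e-09 and 2.1e-09), or 1.49-fold at 15 min, and it was 0.78 and 0.70 with GC content removed.

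SNHG14 was at 174, 169, 171 and 170 in Ctrl300 and at 248, 244, 266 and 253 in wait1min (0.55 ± 0.03, edgeR, adjusted p = 7.1e-11), and at 0.43 with GC content removed. SNHG4, the host of SNORA74A and SNORA74D, was at 53.3, 50.0, 55.1 and 51.2 in Ctrl300, at 72.1, 70.8, 78.0 and 75.3 in wait1min and at 76.5, 76.3, 76.2 and 81.5 in wait15min (0.49 ± 0.04 and 0.56 ± 0.04, edgeR, adjusted p = 1.1e-08 and 1.1e-10). SNHG4 shares exon bases with MATR3 on the same strand, whose 2 gene entries had 1.39 ± 0.08 and 1.02 ± 0.26 at 1 min, and their part in the value of SNHG4 was not tested. SNHG4 was at 0.11, 0.14 and 0.20 over the 3 times with GC content removed, still called. SNHG1 was at 123, 142, 127 and 130 in wait1min and at 128, 123, 120 and 114 in wait15min (0.47 ± 0.05 and 0.37 ± 0.04, edgeR, adjusted p = 1.9e-07 and 3e-07), but with GC content removed it was at 0.07, 0.03 and -0.01 over the 3 times. EPB41L4A-AS1 was at 28.1, 27.2, 28.5 and 29.5 in wait1min (0.40 ± 0.05, edgeR, adjusted p = 1.5e-06), and at 0.23 with GC content removed.

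ZFAS1, the host raised most by heat, was not called after 300 g with TMM scaling, and had 52.9, 54.6, 52.8 and 53.2 in wait1min, 53.5, 53.5, 56.6 and 56.9 in wait4min and 55.1, 53.7, 54.0 and 55.8 in wait15min. Spun and control libraries overlapped, and 3 spun libraries lay above every control. The log2 fold changes were 0.00 ± 0.04, 0.05 ± 0.04 and 0.04 ± 0.04 (edgeR, adjusted p = 0.98, 0.23 and 0.37), while under 2 other scalings it was called higher at all 3 times, with 0.25, 0.31 and 0.30 relative to total counts and 0.59, 0.62 and 0.60 with GC content removed. Between 1 and 15 min of waiting, 0 of the 28 genes were called (edgeR; 9 at an unadjusted p under 0.05 and 0 by DESeq2), beside 0.149% of all genes, 0.0115% higher and 0.138% lower. The libraries did not overlap for 1 gene higher and 4 lower, beside 2.75% and 4.34%. The largest difference among these 9 was that of SNHG25, from 5.91, 5.35, 4.71 and 4.81 to 4.29, 2.93, 4.40 and 4.38 (-0.37 ± 0.13, edgeR, adjusted p = 0.27).

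GC content moved with the results. Over all genes tested, log2 fold changes and GC content had a Spearman's rho of 0.59 at 20 s, 0.67 at 3 and 15 min and 0.10 at 7 min of 9 g, and of -0.69, -0.66 and -0.66 after 300 g. Within the 28 host genes, whose GC content ran from 39.2% to 66.5% with a median of 49.2%, rho was 0.36 at 15 min of 9 g and -0.35, -0.39 and -0.40 after 300 g. Removing the GC dependence over all genes moved the median of the host genes from -0.21, -0.25 and -0.29 to 0.04, -0.00 and -0.09 after 300 g and from 0.24 to 0.19 in hypg15. The part of GC content in single genes was not tested beyond this correction.

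**Figure D4:**
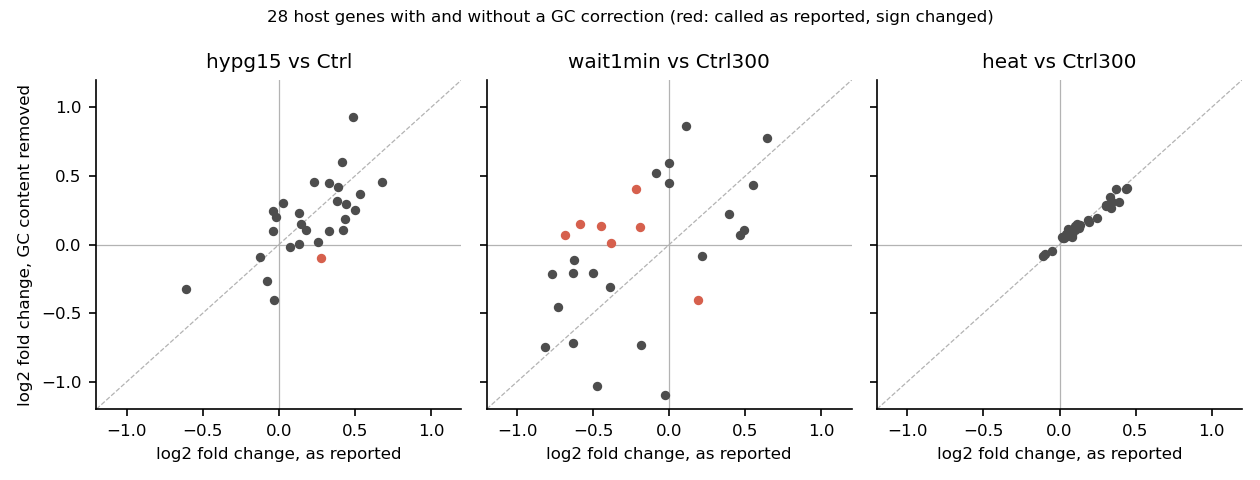
Log2 fold change of the 28 host genes as reported (x) and with GC content removed (y) in hypg15, wait1min and heat, with the dashed line at equal values and genes in red that were called as reported and changed sign. No gene changed sign after heat, while 7 of the 22 called genes did in wait1min and SNHG7 alone of the 18 called in hypg15; genes that were not called and changed sign are not in red.

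The snoRNAs themselves could be followed only in part. Of 137 annotated entries of snoRNAs and scaRNAs inside the host genes, 80 lie within the exon model of their host and 77 of these had 0 counts, since shared bases were given to neither gene. Of the other 57, 11 had a mean count of at least 10, and SNORA73B of SNHG3 led with 7155. SNORA73B spans 204 bases, SNORD12C 89 and SNORD104 70. The paper names RNeasy Mini kits for RNA extraction, and how well RNAs this short were kept was not tested. These counts therefore do not rank the snoRNAs by their level in the cell. Reads over a snoRNA may stem from the finished RNA or from the unspliced host, which cannot be told apart here, and the snoRNAs other than SNORA73B were chosen for naming after their values were seen. The sequences below are those of GENCODE 29 (GRCh38), with the C and D boxes (TGATGA and CTGA) or the closing ACA box in capitals.
SNORD12C: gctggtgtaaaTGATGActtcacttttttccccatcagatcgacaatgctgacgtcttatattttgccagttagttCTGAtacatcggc
SNORD104: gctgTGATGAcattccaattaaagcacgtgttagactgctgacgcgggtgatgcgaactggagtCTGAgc
SNORA73B: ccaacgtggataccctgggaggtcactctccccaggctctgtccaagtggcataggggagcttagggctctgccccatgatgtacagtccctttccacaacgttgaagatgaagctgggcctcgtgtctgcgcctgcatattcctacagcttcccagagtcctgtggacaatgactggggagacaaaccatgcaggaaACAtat
They lie at chr20:49278940-49279028 in ZFAS1, chr17:64146083-64146152 in SNHG25 and chr1:28508559-28508762 in SNHG3, all on the plus strand.

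After 300 g SNORA73B and SNORD104 fell along with their hosts, while SNORA74A, SNORD12C and SNORA13 fell and their hosts did not. SNORA73B, which takes part in the processing of ribosomal RNA, was at 217, 223, 210 and 228 normalized CPM in Ctrl300, at 139, 173, 144 and 128 in wait1min, at 89.8, 87.1, 86.9 and 80.7 in wait4min and at 96.0, 86.3, 87.2 and 73.7 in wait15min. The log2 fold change was -0.59 ± 0.07, -1.35 ± 0.04 and -1.36 ± 0.06 (edgeR, adjusted p = 2.5e-07, 8.6e-19 and 6.9e-14), while its host SNHG3 had -0.39, -0.32 and -0.30. With total counts SNHG3 had -0.14, -0.07 and -0.04, and its 15 min call was lost (edgeR, adjusted p = 0.22). SNHG3 shares exon bases with RCC1 on the same strand, which had -0.72, -0.71 and -0.70. The part of RCC1 in the value of SNHG3 was not tested. SNORA74A was at 10.8, 10.4, 10.4 and 10.3 in Ctrl300, at 7.22, 8.78, 6.93 and 5.96 in wait1min and at 5.26, 4.49, 4.27 and 4.12 in wait15min. Its log2 fold changes were -0.54, -1.205 and -1.21 (edgeR, adjusted p = 4.6e-05, 2.5e-12 and 9.1e-11) while its host SNHG4 had 0.49, 0.50 and 0.56, or 0.11, 0.14 and 0.20 with GC content removed.

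SNORD12C was at 5.46, 5.03, 5.36 and 5.25 in Ctrl300 and at 2.82, 3.01, 3.16 and 3.43 in wait1min (-0.77 ± 0.10, edgeR, adjusted p = 1.1e-06) while its host ZFAS1 had a log2 fold change of 0.00. SNORA13 of EPB41L4A-AS1 likewise fell, with -0.96, -0.76 and -0.78, beside a host that rose by 0.40, 0.32 and 0.36. SNORA13 is sparse, with a mean count of 37.6, and was at 1.32 to 1.71 normalized CPM in Ctrl300 and 0.434 to 1.18 in wait1min. SNORD104 fell together with its host SNHG25, at -0.35, -0.65 and -0.71 beside -0.58, -0.59 and -0.95, but with GC content removed SNORD104 stood at 0.06, -0.26 and -0.32 and SNHG25 at 0.15, 0.09 and -0.26. In all, 0 of 11 snoRNAs tested were higher and 7, 8 and 6 were lower at the 3 times, beside 40.1%, 40.6% and 40.5% of all genes lower and 41.4%, 41.7% and 41.8% higher. The counts of lower snoRNAs were 5, 6 and 6 with total counts and 6, 9 and 9 with GC content removed, where SNORA71B was higher at 15 min. With GC content removed SNORA73B and SNORD104 were not called at 1 min nor SNORA71B at 1 and 4 min, and with total counts the calls of SNORD104 at 1 min and of SNORA71B at 1 and 4 min were lost. That of SNORA71B at 1 min was also lost without library 49, 50, 52, 54 or 56. SNORD99 at 4 min was lost under both scalings and without library 49, 57 or 59. The difference between a snoRNA and its host was not itself tested. With GC content removed, SNORA73B at 1 min stood at -0.03 and at 4 and 15 min at -0.82 each, SNORA74A stood at -0.30, -0.97 and -0.97 and SNORD12C at -1.43, -1.39 and -1.45, and SNORA13 at -1.79, -1.56 and -1.58.

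SNORA73B and SNORA74A also differed between waiting times. From wait1min to wait15min their log2 fold changes were -0.76 ± 0.08 and -0.67 ± 0.12 (edgeR, adjusted p = 3.9e-05 and 0.015), and their libraries did not overlap, while 0.138% of all genes were called lower between these groups. The call of SNORA74A was lost on leaving out library 55, 62 or 63 (adjusted p = 0.052, 0.079 and 0.082). At 9 g both were lower at 9 min (-0.48 ± 0.08 and -0.36 ± 0.12, edgeR, adjusted p = 0.0014 and 0.043) and higher at 15 min (0.17 ± 0.07 and 0.32 ± 0.10, edgeR, adjusted p = 0.041 and 0.015), where 6 of 11 snoRNAs were higher and 0 lower, beside 25.4% and 27.9% of all genes. SNORA73B was also called lower at 75 s (-0.16, lost with all groups in 1 model) and at 7 min (-0.38). From 20 s to 9 min 0 snoRNAs were higher and 0, 3, 0, 0, 1 and 3 lower. Of all genes, 8.58%, 14.4%, 24.4%, 1.69%, 6.19% and 8.34% were lower at these times. At 60 min 1 was higher and 1 lower, beside 17.1% and 13.0%. SNORD12C was called lower at 75 s (-0.35) and 60 min (-0.50), and SNORA13 at 75 s (-0.42) and 9 min (-0.39). These calls of SNORD12C and SNORA13 were lost with GC content removed. The 9 min call of SNORA74A was lost with total counts (edgeR, adjusted p = 0.059). SNORA73B at 15 min turned to -0.05 with GC content removed. Both 15 min calls were lost without library 80, with 0.11 and 0.23 (edgeR, adjusted p = 0.13 and 0.05), and that of SNORA73B also without library 1, 2 or 78, without a filter (0.086) and with all groups in 1 model (0.18).

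**Figure D5:**
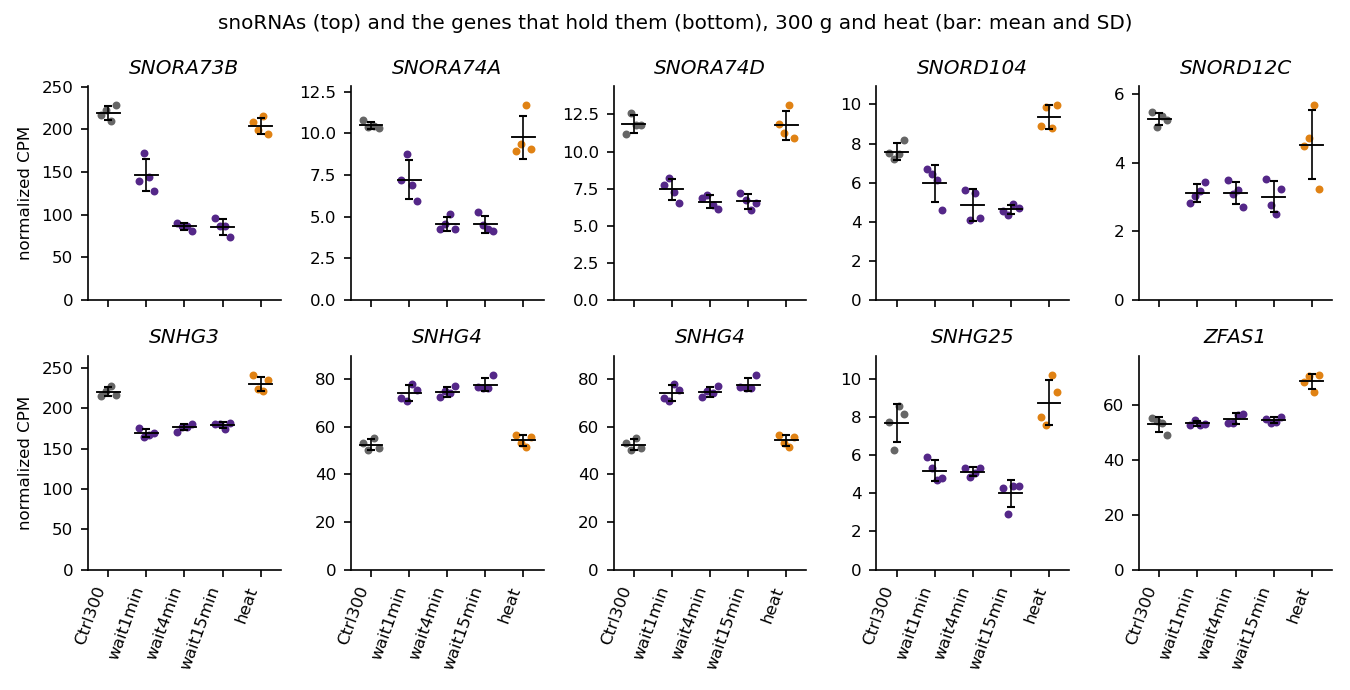
Normalized CPM by library of 5 snoRNAs (top) and of the genes that hold them (bottom) in the 300 g and heat experiment, with the mean and SD of each group; SNHG4 is shown for each of its 2 snoRNAs. SNORA74A and SNORA74D fall after 300 g while SNHG4 rises, and SNORD12C falls while ZFAS1 overlaps with its controls.

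Genes of the proteins that work on snoRNAs were counted in the same libraries. The counts below stand beside 25.4% of all genes higher and 27.9% lower in hypg15, 41.8% and 40.5% at wait15min and 10.6% and 10.2% after heat. Of the 8 core proteins of snoRNA particles, 0 were higher and 4 lower in hypg15 (DKC1 -0.37, GAR1 -0.45, NOP10 -0.36 and NOP58 -0.38), with a median log2 fold change of -0.22. After 15 min of waiting, 1 was higher and 6 lower: FBL, the methyltransferase of box C/D particles, had -1.09 and NHP2 -1.08, while NOP58 had 1.92. Of 13 assembly and processing factors, 1 was higher and 8 lower in hypg15, with ZNHIT6 and RPAP3 at -1.12 each, and 7 were higher and 6 lower at wait15min, where RPAP3 had 2.38. After heat, 1 and 1 of the core proteins and 2 and 3 of the assembly factors were called.

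Nonsense-mediated decay factors, which act on spliced hosts, were 4 higher and 4 lower of 14 in hypg15, with UPF3B at -0.78 and UPF2 at -0.73, and 5 higher and 8 lower at wait15min, with UPF2 at 2.23 and UPF1, the central helicase, at -0.72. After heat 2 were higher and 1 lower, UPF3A among the former with 0.29. Of 26 protein-coding snoRNA hosts, 4 were higher and 11 lower in hypg15, with EIF4A1 at 0.59 and NCL, nucleolin, at -0.71, 11 were higher and 14 lower at wait15min, and after heat 4 were higher and 2 lower. Of 15 mRNAs of translation factors with a pyrimidine run at the start, 0 were higher and 7 lower in hypg15, 4 and 11 were called at wait15min, with EEF2 at -1.07, and 0 and 1 after heat. These lists were chosen with results of these libraries known, and their counts are descriptions.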

How the data were processed

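The deposited file is a table of raw counts, read pairs per gene in 80 libraries, which the authors made with featureCounts (2.0.3 per the file header, 2.0.1 per the labels) after Trim Galore 0.6.5 and STAR 2.7.3a, on hg38 with strand taken into account. A read pair on exons of 2 genes of the same strand was counted for neither. Gene length is a value of the same table. Groups follow the sample titles. The column names of wait1min and wait4min name shorter waits than the titles. Library 75 and a record broken over 3 lines were left out.

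Each comparison was fitted on its 2 groups with edgeR 4.0.16 (R 4.3.3; TMM scaling, filterByExpr with a minimum count of 10, quasi-likelihood F test, Benjamini-Hochberg adjustment over all genes tested, 0.05); SE is the log2 fold change over the square root of F. All 28 host genes passed the filter in each comparison. Normalized CPM uses TMM factors over the libraries of 1 experiment. The edgeR scripts were tested on simulated data. Alternatives were no filter, RLE scaling, total counts, DESeq2 1.42.0, all groups in 1 model, GC content of the longest GENCODE 29 transcript removed, library 75 kept and single libraries left out. Named genes were GAS5, SNHG1, ZFAS1 and DANCR and up to 4 called hosts per direction and comparison with the largest log2 fold change at a mean of at least 10 CPM; further genes were named after their values were seen. The host genes and lists were chosen with earlier results of these data known. Counting error was not separated from other variation between libraries.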

Additional observations from a re-analysis of the deposited data

Results flagged for a closer look

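The libraries of each group were checked for single values far from the rest by Dixon's gap test, in normalized CPM, for 18 host genes in 270 groups of 4 to 6 libraries. Of these, 17 were picked out, where chance gives about 1 in 20. High values, given with the range of the rest of the group, were found for ZFAS1 in library 33 of hypg7 (46.5 against 43.7 to 44.7), SNHG14 in library 17 of hypg20s (216 against 176 to 189) and SNHG7 in library 4 of Ctrl (99.1 against 94.8 to 95.9). Others were SNHG26 in library 69 of hypg3 (18.3 against 14.2 to 15.7), SNHG26 in library 26 of hypg5 (17.5 against 16.2 to 16.6) and SNHG11 in library 24 of hypg75s (32.1 against 29.4 to 30.4). Among further high values were SNHG17 in library 24 of hypg75s (220 against 186 to 196), SNHG17 in library 80 of hypg15 (281 against 241 to 249) and SNHG5 in library 51 of Ctrl300 (19.2 against 17.9 to 18.1). The last were SNHG4 in library 3 of Ctrl (45.6 against 42.2 to 43.2) and SNHG4 in library 64 of wait15min (81.5 against 76.2 to 76.5). Low values were found for SNHG1 in library 21 of hypg75s (73.6 against 80.0 to 83.2), DANCR in library 9 of Ctrl60 (89.98 against 105 to 112) and SNHG14 in library 66 of heat (158 against 169 to 170). Further low values were those of SNHG7 in library 49 of Ctrl300 (92.6 against 102.5 to 103.6), SNHG7 in library 60 of wait4min (61.5 against 62.8 to 62.9) and SNHG6 in library 29 of hypg5 (14.5 against 17.7 to 19.0).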

How the results depend on the processing

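Of the calls on host genes, 135 were kept and 3 lost with DESeq2, 132 and 6 with RLE scaling, 125 and 13 with all groups in 1 model, and 122 and 16 without a filter. With total counts 119 were kept, 12 lost and 7 changed sign, and with GC content removed 94, 23 and 21. The cause was not tested. Leaving out single libraries kept 826 and lost 12, with 11 to 12 host genes called after heat, 17 to 20 in hypg15, 7 to 12 in hypg60, 22 in wait1min and wait15min, 22 to 23 in wait4min and 0 between wait15min and wait1min. SNHG21 in hypg15 was lost without library 6, 77 or 80 and SNHG16 without library 79. Libraries were left out singly for hypg15, the 300 g groups and heat, each with its controls, while in hypg60 only library 44 or 48 was left out and none was left out for hypg20s to hypg9. The hypg60 settings without library 44 or 48 were chosen after seeing the data. No paired analysis was possible because no number is shared between groups.

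Counts of host genes called moved as follows. In hypg20s (2 as reported) they were 0 without a filter, 1 with RLE, 0 with total counts, 0 with all groups in 1 model and 6 with GC content removed. In hypg75s (8) they were 4 without a filter and 3 with 1 model. In hypg3 (6) they were 14 with total counts and 13 with GC content removed, in hypg5 (2) 0 without a filter, 0 with RLE, 1 with total counts and 8 with GC content removed, in hypg7 (7) 12 with total counts, and in hypg9 (9) 14 with either. The split into higher and lower moved with GC content removed to 5 and 1 in hypg20s, 5 and 4 in hypg75s, 8 and 5 in hypg3, 6 and 2 in hypg5, 15 and 4 in hypg15, 7 and 3 in hypg60, 11 and 11 in wait1min, 10 and 11 in wait4min and 9 and 12 in wait15min. It was 8 and 1 in hypg3 with RLE or DESeq2, 11 and 3 with total counts and 5 and 1 with 1 model. In hypg75s it was 3 and 1 without a filter and 2 and 1 with 1 model, in hypg7 10 and 2 with total counts and 5 and 1 with 1 model, and in hypg60 11 and 0 with total counts.

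Beside these counts, the shares of all genes called higher and lower were, with GC content removed, 4.02% and 10.2% in hypg20s, 9.28% and 16.4% in hypg75s, 6.16% and 26.9% in hypg3, 5.01% and 10.47% in hypg5, 12.2% and 16.0% in hypg9, 13.2% and 29.8% in hypg15, 17.3% and 24.1% in hypg60, 44.0% and 28.2% in wait1min, 45.4% and 29.3% in wait4min and 44.9% and 29.2% in wait15min. With total counts they were 6.23% and 6.38% in hypg20s, 21.4% and 21.7% in hypg3, 6.88% and 1.65% in hypg5, 10.46% and 5.09% in hypg7, 15.4% and 5.54% in hypg9 and 20.6% and 9.01% in hypg60. Without a filter they were 2.27% and 4.80% in hypg20s, 5.69% and 6.69% in hypg75s and 1.204% and 0.459% in hypg5, with RLE 6.61% and 8.75% in hypg20s, 20.2% and 22.1% in hypg3 and 3.90% and 2.03% in hypg5, with DESeq2 19.1% and 22.2% in hypg3, and with all groups in 1 model 4.62% and 2.78% in hypg20s, 11.7% and 9.71% in hypg75s, 17.2% and 19.7% in hypg3 and 6.47% and 4.96% in hypg7.

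With GC content removed, log2 fold changes turned in hypg20s for SNHG7 (-0.031). In hypg75s they turned for SNHG7 (-0.069). In hypg15 they turned for SNHG7 (-0.096) and SNORA73B (-0.051). In wait1min they turned for SNHG12 (0.40), SNHG32 (0.0080), SNHG15 (0.12), SNHG6 (-0.40), SNHG7 (0.071), SNHG25 (0.15), SNHG11 (0.14), SNORD104 (0.057) and SNORA71B (0.17). In wait4min they turned for SNHG12 (0.38), SNHG15 (0.069), SNHG7 (0.0099), SNHG19 (0.34), SNHG25 (0.093), SNHG11 (0.10) and SNORA71B (0.12). In wait15min they turned for SNHG12 (0.29), SNHG15 (0.022), SNHG1 (-0.011), SNHG19 (0.33) and SNHG11 (0.088). With total counts, log2 fold changes turned in wait1min for GAS5 (0.062), SNHG12 (0.023) and SNHG15 (0.052). In wait4min they turned for SNHG12 (0.045), SNHG15 (0.021) and SNHG19 (0.026). In wait15min they turned for SNHG19 (0.0098). With library 75 kept, log2 fold changes turned in hypg15 for SNHG8 (-0.083), the calls of SNHG6, SNHG7, SNHG26, SNORA73B, SNORA74A and SNORA74D were lost, and 14 host genes were higher and 0 lower, beside 32.4% of all genes called in either direction.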
